A study of Homo sapiens with 6 samples.

Results

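Wnt signaling begins with secreted, lipid-modified Wnt proteins that bind Frizzled receptors and LRP co-receptors at the cell surface. In the absence of Wnt, a cytoplasmic destruction complex built on APC and Axin marks β-catenin for degradation. With Wnt present, Dishevelled proteins interrupt that complex, and stabilized β-catenin enters the nucleus and acts with TCF/LEF factors. Other branches, which run through Ror and Ryk receptors or through the planar cell polarity proteins Vangl and Celsr, do not depend on β-catenin. In the endometrium, Wnt signals pass between stroma and glands, and mutations that stabilize β-catenin are a known feature of some endometrial cancers (EC).

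The transcripts of 50 genes of this pathway were followed in the EC line AN3CA with and without knockdown (KD) of *PAX2*. The genes were taken by name and comprise 11 Wnt ligands, the acyltransferase *PORCN*, 10 Frizzled receptors, 5 co-receptors, 6 genes of the R-spondin axis and 3 Dishevelled genes. The others are 5 genes of the destruction complex with β-catenin, 4 TCF/LEF factors, 2 Naked feedback genes and 3 planar cell polarity genes. Secreted antagonists of the SFRP and DKK families are not among them. Of the 50, 45 were rows of the expression table, which lists 17471 genes. The other 5 (*WNT7A*, *WNT11*, *FZD10*, *RSPO3* and *LGR5*) were not among the listed genes. Of these 45, 32 reached 0.5 TPM (a transcript level, in which reads are scaled by gene length and library total) in at least 3 libraries and were tested, among 13163 genes in all.

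AN3CA is an established human endometrial cancer line in which *PAX2*, a developmental transcription factor, is expressed. The shEV group (3 libraries, genotype WT in the labels) carried the empty lentiviral hairpin vector, and the shPAX2 group (3 libraries, genotype PAX2 KD) carried that vector with 1 short hairpin RNA against *PAX2*. Both groups were selected with puromycin and grown in MEM with FBS, and the study elsewhere calls the AN3CA control scrambled. Nothing in the labels says that the replicates were separate cultures, so the p-values measure the spread between these libraries, which may be technical. With 1 hairpin, effects of *PAX2* loss and of any other target of the hairpin cannot be told apart.

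The targeted gene followed the labels. *PAX2* measured 4.03, 3.66 and 2.74 TPM in the shEV libraries and 0.916, 0.723 and 1.17 TPM in the shPAX2 libraries, with no overlap. Its log2 fold change was -1.47 (SE 0.18, limma adjusted p = 0.000294), while an exact permutation test (two-sided) cannot go below its value of 0.1 with 3 against 3. Depth ran from 10778743 to 18302976 reads for shEV and from 19506926 to 29536918 for shPAX2, with no overlap. The part of depth in the results below was not tested. The labels call the cells epithelial, yet 7 of 8 listed epithelial markers, *EPCAM*, *KRT8* and *CDH1* among them, stayed under the filter, and only *KRT18* passed it (10.2 to 17.5 TPM). *VIM*, a mesenchymal marker, ranged from 3750 to 4410 TPM. Of 8 mesenchymal markers, 6 were listed and 4 tested, with *CDH2* and *FN1* under the filter. *COL1A1* (0.691 to 1.48 TPM) and *PDGFRB* (0.664 to 1.08 TPM) were low. Of the 4 tested, only *COL1A2* passed in limma (adjusted p = 1.75e-05), at 809 to 855 TPM in shEV and 360 to 439 TPM in shPAX2. *CD68* (0.835 to 2.28 TPM) was the only one of 4 listed leukocyte markers over the filter and was higher in shPAX2 by 0.59 (limma adjusted p = 0.0359), and neither of the 2 listed endothelial markers reached the filter. The part of these markers in the results was not tested.

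The Wnt pathway genes were lower more often than higher after *PAX2* KD, and 3 stood out by size. *FZD7*, a Frizzled receptor, rose, and *ROR1*, a co-receptor, and *WNT9A*, a ligand, fell, each by more than 1 on the log2 scale. Of the 32 tested genes, 17 (53.1%) passed an adjusted p of 0.05 in limma, against 42.8% of all tested genes. Of these, 2 were higher (6.25% of the 32, against 12.2% of all tested genes) and 15 were lower (46.9%, against 30.5%). Without shPAX2 replicate 2, 11 passed, 1 higher and 10 lower, where 29.5% of all tested genes passed, 7.49% higher and 22% lower. *WNT9A* and *AXIN2* passed the expression filter only through the shEV libraries, so that they had to differ to be tested. Without such genes, 15 of 30 passed, 2 higher and 13 lower, against 41.8% of all genes so counted (11.8% higher and 29.9% lower). Both thresholds, the adjusted p and a log2 fold change of at least 1 in either direction, were passed by 3 genes (9.38%, against 4.54% of all tested genes). Higher past both was *FZD7* alone (background 1.43%), and lower past both were *ROR1* and *WNT9A* (background 3.11%). With *WNT9A* and *AXIN2* left out for this reason, 2 of 30 passed both, against 3.32% of all genes so counted. Groups were fully separated in 20 of the 32 (62.5%), against 54.9% of all tested genes. As bulk RNA was sequenced, fewer cells expressing a gene and less RNA per cell cannot be told apart.

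The median log2 fold change was -0.27 over the 32 genes and -0.10 over all tested genes. Relative to that -0.10, the 15 lower genes lay between -1.55 (*WNT9A*) and -0.12 (*GSK3B*). The balance of directions depended on the scaling of the libraries. Under median-of-ratios scaling, which brought the median of all genes to 0.01, 14 pathway genes passed, 4 higher and 10 lower, while 21.8% of all tested genes were higher and 19.6% lower. The median of the 32 genes was then -0.16, and 41.4% of all tested genes passed. Under quantile normalization 14 pathway genes passed, 2 higher and 12 lower. Of all tested genes, 36.9% passed there, 18% higher and 18.9% lower. The medians under quantile normalization were -0.11 over the 32 genes and 0.0019 over all tested genes.

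**Figure D1:**
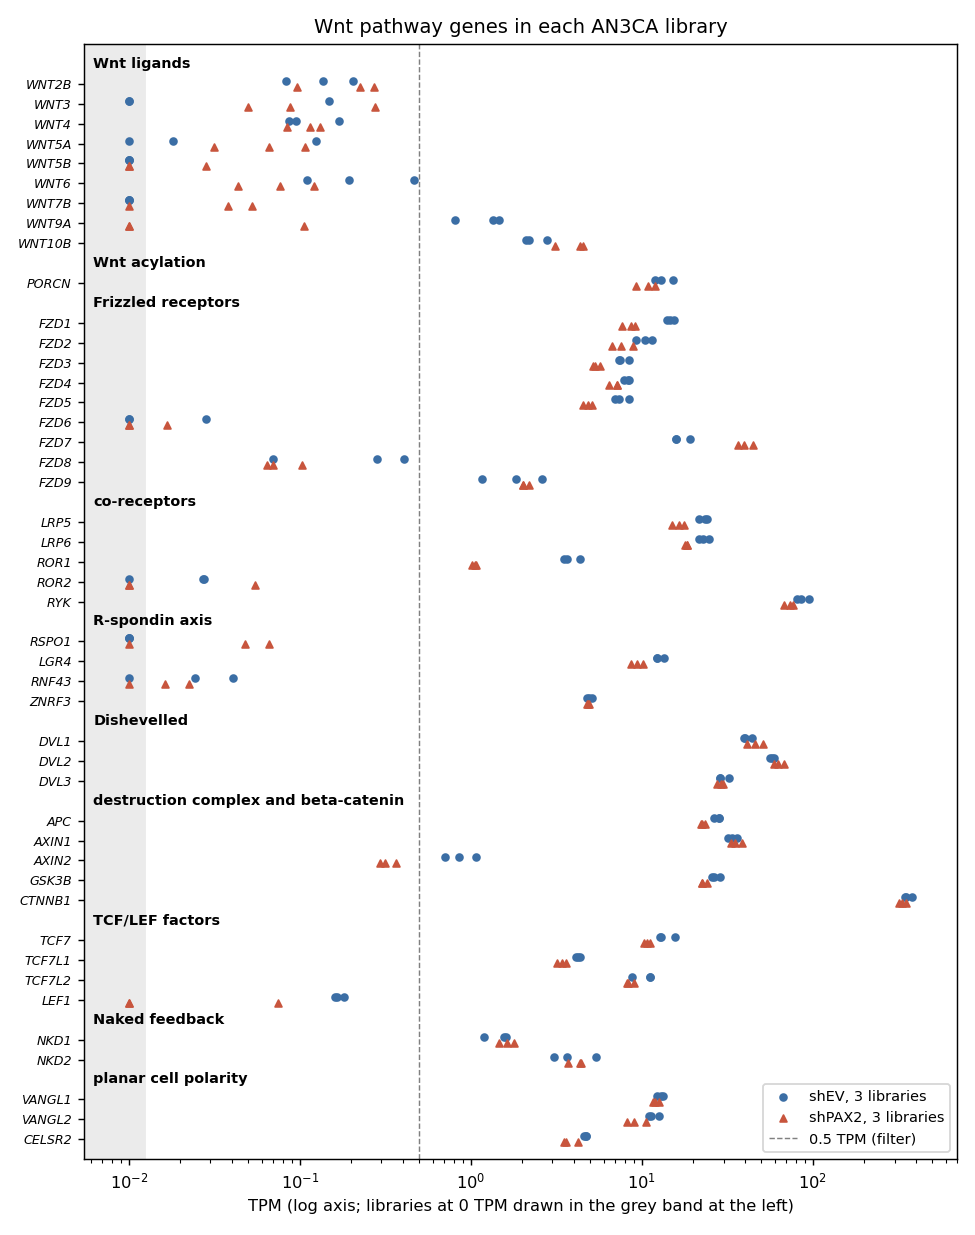
Level of the 45 listed Wnt pathway genes in each library, in TPM on a log axis, by family. Blue circles are the 3 shEV libraries, red triangles the 3 shPAX2 libraries, the dashed line the filter at 0.5 TPM, and libraries at 0 TPM are drawn in the grey band. *CTNNB1* lies highest (318 to 380 TPM), 7 of 9 ligands lie left of the filter, and *FZD7* is the Frizzled receptor whose triangles lie to the right of its circles without overlap.

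The promoters of the genes that fell furthest, and of TCF factors that hold a TCF-type motif, were read from RefSeq (GRCh38.p14, 250 bases before to 50 bases after each gene start). The table matched 37 of the 50 genes, with 47 promoters. Genes with no entry were *AXIN2*, *FZD2*, *FZD3*, *FZD6*, *FZD7*, *FZD10*, *LGR5*, *LRP6*, *NKD1*, *WNT7B*, *WNT10B*, *WNT11* and *ZNRF3*. *ROR1* and *WNT9A* are shown because they fell past both thresholds, and *TCF7* and *TCF7L2* because they are the tested genes with a motif match. Capitals mark the match, and each sequence is given 5′ to 3′ on the strand of its gene.
*ROR1* promoter, chr1:63773767-63774066, plus strand: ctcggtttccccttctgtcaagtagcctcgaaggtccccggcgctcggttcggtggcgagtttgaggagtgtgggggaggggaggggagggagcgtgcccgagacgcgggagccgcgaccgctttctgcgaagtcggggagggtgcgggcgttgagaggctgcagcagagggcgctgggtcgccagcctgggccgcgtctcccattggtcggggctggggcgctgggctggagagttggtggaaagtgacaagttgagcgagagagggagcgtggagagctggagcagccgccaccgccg
*WNT9A* promoter, chr1:227947883-227948182, minus strand: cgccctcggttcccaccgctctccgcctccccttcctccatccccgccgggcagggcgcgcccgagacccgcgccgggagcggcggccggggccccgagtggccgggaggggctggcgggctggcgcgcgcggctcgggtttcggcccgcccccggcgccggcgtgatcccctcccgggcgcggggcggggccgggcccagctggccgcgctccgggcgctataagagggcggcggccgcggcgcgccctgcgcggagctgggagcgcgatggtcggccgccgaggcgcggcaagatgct
*TCF7* promoter at its second listed start, chr5:134123368-134123667, plus strand: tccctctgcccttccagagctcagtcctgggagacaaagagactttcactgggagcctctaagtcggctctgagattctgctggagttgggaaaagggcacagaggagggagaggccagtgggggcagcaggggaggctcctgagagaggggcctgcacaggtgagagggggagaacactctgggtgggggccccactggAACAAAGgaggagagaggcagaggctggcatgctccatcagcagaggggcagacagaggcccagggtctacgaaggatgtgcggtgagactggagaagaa
*TCF7L2* promoter at its second listed start, chr10:113126383-113126682, plus strand: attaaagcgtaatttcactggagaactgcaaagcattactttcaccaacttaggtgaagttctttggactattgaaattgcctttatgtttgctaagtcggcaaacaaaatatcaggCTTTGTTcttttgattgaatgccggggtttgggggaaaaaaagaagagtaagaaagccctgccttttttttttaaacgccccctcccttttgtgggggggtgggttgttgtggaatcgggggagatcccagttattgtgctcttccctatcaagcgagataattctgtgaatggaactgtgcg

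The motifs searched, on both strands, are forms of the sequence that TCF/LEF factors are known to bind. They were CTTTGAA (present in 4.43% of all promoters), CTTTGAT (in 2.62%), CTTTGTT (in 5.20%) and CTTTGTA (in 2.77%). A match was present in 3 of the 47 promoters (6.38%) and in 13.8% of all 35116 promoters of the same length. All 3 were CTTTGTT. In *TCF7* the match lay on the opposite strand at position -50 from the gene start, in *TCF7L2* on the gene's strand at -133, and the other was in *WNT3*, at 19. The *ROR1* and *WNT9A* windows held no match. GC content was 69% in the *ROR1* window, 83% in *WNT9A*, and 61% and 42.7% in the *TCF7* and *TCF7L2* windows shown. The other *TCF7* start (69.7% GC) and the other *TCF7L2* starts (65.7% and 48.7%) held no match. The median GC content was 69.3% over the 47 promoters and 58.7% over all promoters. A match is a description of the letters and not a binding site.

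Among the ligands, *WNT10B* and *WNT9A* were the only ones of the 9 listed that passed the filter, and they moved in opposite directions. *WNT9A*, a ligand of the β-catenin branch in several tissues (GRCh37 chromosome 1, 228106357 to 228135633, minus strand), measured 1.35, 1.46 and 0.804 TPM in shEV, from 9, 16 and 9 reads. In shPAX2 it measured 0.105, 0 and 0 TPM, from 2, 0 and 0 reads. It was present in every shEV library and at or near 0 in each shPAX2 one. The log2 fold change on the log2(TPM + 0.5) scale was -1.66 (SE 0.22). As *WNT9A* reached the filter only through shEV, its test is given from the limma fit with no filter (adjusted p = 0.000987). The shEV mean of *WNT9A* (1.21 TPM) was 6.18 times the floor of 3 reads averaged over the shPAX2 libraries (0.195 TPM), with no counting error taken for shEV. Its estimate moved with the pseudocount and method, from -4.41 (voom on the recovered reads) to -1.08 (pseudocount of 1 TPM), and a listed microRNA gene, *MIR5008*, overlaps it on the same strand.

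*WNT10B*, another ligand that acts through β-catenin (GRCh37 chromosome 12, 49359123 to 49365518, minus strand), was examined after its values were seen. It measured 2.20, 2.77 and 2.10 TPM in shEV and 3.09, 4.51 and 4.33 TPM in shPAX2, from 28 to 58 and 100 to 144 reads. The groups did not overlap, and it rose by 0.64 on the log2 scale (SE 0.16, limma adjusted p = 0.0120). Without shPAX2 replicate 2 the estimate was 0.55 and the limma adjusted p was 0.0542, the highest of a range from 0.00343 over the alternatives.

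*WNT10B* was the most abundant ligand in both groups. It supplied 56.5%, 56.7% and 56.1% of the summed TPM of the 9 listed ligands in shEV, and 85.8%, 87.8% and 83.3% in shPAX2. *WNT9A* supplied 34.7%, 29.9% and 21.4% in shEV and 2.93%, 0% and 0% in shPAX2. The summed level itself averaged 4.18 ± 0.618 TPM for shEV and 4.64 ± 0.905 TPM for shPAX2 (SD, n = 3 per group), and the groups overlapped. The groups therefore overlapped in the summed ligand level and not in these shares. Both shares have the same total, so the drop of *WNT9A* also raises the share of *WNT10B*. *WNT10A* (0.345 to 0.839 TPM) is not among the 9.

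The other 7 listed ligands (*WNT2B*, *WNT3*, *WNT4*, *WNT5A*, *WNT5B*, *WNT6* and *WNT7B*) stayed under the filter, at no more than 10 reads and 0.466 TPM in any library. For *WNT5A*, the classical ligand of the Ror receptors, the shEV libraries gave 0, 1 and 7 reads and the shPAX2 libraries 3, 9 and 4. *WNT4*, a ligand needed for the formation of the Müllerian ducts, had 2 to 6 reads in every library. No difference in these ligands was detectable at this depth. *PORCN*, the acyltransferase that attaches the lipid Wnts need for secretion, was at 11.9 to 15.1 TPM in shEV and 9.26 to 11.9 TPM in shPAX2, and did not pass (log2 fold change -0.30, limma adjusted p = 0.0574).

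Among the Frizzled receptors, *FZD7* rose while 4 of the 6 other tested receptors fell on the TPM scale, where 30.5% of all tested genes were lower. Of these 4, 3 also fell under median-of-ratios scaling and under quantile normalization (19.6% and 18.9% of all tested genes lower). *FZD7* (GRCh37 chromosome 2, 202898578 to 202903164, plus strand), a receptor that signals through β-catenin and through planar cell polarity, measured 15.8, 15.8 and 19.1 TPM in shEV, from 326, 537 and 663 reads. In shPAX2 it measured 36.5, 44.4 and 39.5 TPM, from 2151, 2306 and 1486 reads. Every shPAX2 library lay above every shEV library. Group means were 16.9 ± 1.90 TPM (shEV) and 40.2 ± 4 TPM (shPAX2; SD, n = 3 per group), and *FZD7* rose by 1.23 on the log2 scale (SE 0.10, limma adjusted p = 2.64e-05). Over all alternatives the estimate stayed between 1.15 and 1.34.

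*FZD1* (GRCh37 chromosome 7, 90893748 to 90900641, plus strand), a receptor of the same sequence subgroup as *FZD2* and *FZD7*, went the other way. It measured 15.5, 14.5 and 14.1 TPM in shEV and 9.16, 8.58 and 7.63 TPM in shPAX2. The groups did not overlap, and *FZD1* fell by 0.76 on the log2 scale (SE 0.09, limma adjusted p = 0.000192). *FZD2* measured 10.4, 11.4 and 9.19 TPM in shEV and 8.90, 7.56 and 6.71 TPM in shPAX2, and fell by 0.40 (SE 0.12, limma adjusted p = 0.0231). The *FZD2* call was lost under median-of-ratios and quantile scaling and without shEV replicate 1, shEV replicate 2, shPAX2 replicate 2 or shPAX2 replicate 3, with limma adjusted p from 0.00828 to 0.232 and estimates from -0.50 to -0.19 over the alternatives.

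Of the 4 tested receptors of other subgroups, *FZD5* and *FZD3* fell, and *FZD4* and *FZD9* did not pass. *FZD5*, a receptor known to act through β-catenin, measured 8.46, 7.36 and 6.97 TPM in shEV and 4.86, 5.12 and 4.5 TPM in shPAX2, and fell by 0.60 on the log2 scale (SE 0.10, limma adjusted p = 0.00178). *FZD3*, known for axon guidance and planar polarity, measured 7.32, 7.44 and 8.43 TPM in shEV and 5.70, 5.32 and 5.15 TPM in shPAX2, and fell by 0.48 (SE 0.09, limma adjusted p = 0.00344). Neither overlapped between the groups, and both passed in every alternative. *FZD4*, the receptor of norrin as well as of Wnts, was at 7.84 to 8.36 TPM in shEV and 6.39 to 7.18 TPM in shPAX2, and did not pass (log2 fold change -0.22, limma adjusted p = 0.0603). *FZD9* was at 1.16 to 2.62 TPM in shEV and 2.01 to 2.18 TPM in shPAX2, and did not pass (0.16, limma adjusted p = 0.575). *FZD6* and *FZD8* were under the filter, at no more than 1 and 8 reads in a library.

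The order of the Frizzled receptors by mean level was the same in both groups, from *FZD7* over *FZD1*, *FZD2*, *FZD4*, *FZD3*, *FZD5* and *FZD9* to *FZD8* and *FZD6*. In shEV, *FZD7* (16.9 ± 1.90 TPM) and *FZD1* (14.7 ± 0.691 TPM) lay close, although their libraries did not overlap, and *FZD3*, *FZD4* and *FZD5* overlapped one another. In shPAX2, *FZD7* stood far above the rest, and *FZD1* (8.46 ± 0.772 TPM) overlapped *FZD2* (7.72 ± 1.10 TPM). *FZD7* supplied 22.9%, 24% and 28.1% of all Frizzled TPM in shEV, and 48.9%, 55.9% and 54.3% in shPAX2. *FZD1* supplied 21.8% ± 0.868 in shEV and 11.2% ± 0.965 in shPAX2 (SD, n = 3 each). These percentages are taken within a library, so a factor common to all its genes does not move them.

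Summed over the 9 listed receptors, Frizzled transcripts measured 68.8, 65.7 and 68.0 TPM in shEV and 74.6, 79.5 and 72.8 TPM in shPAX2. Each shPAX2 library was above each shEV library. Without *FZD7* the sum was 53.0, 49.9 and 48.9 TPM in shEV and 38.1, 35.1 and 33.2 TPM in shPAX2, which is the opposite order. The rise of *FZD7* was therefore larger in TPM than the summed decrease of the other receptors.

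**Figure D2:**
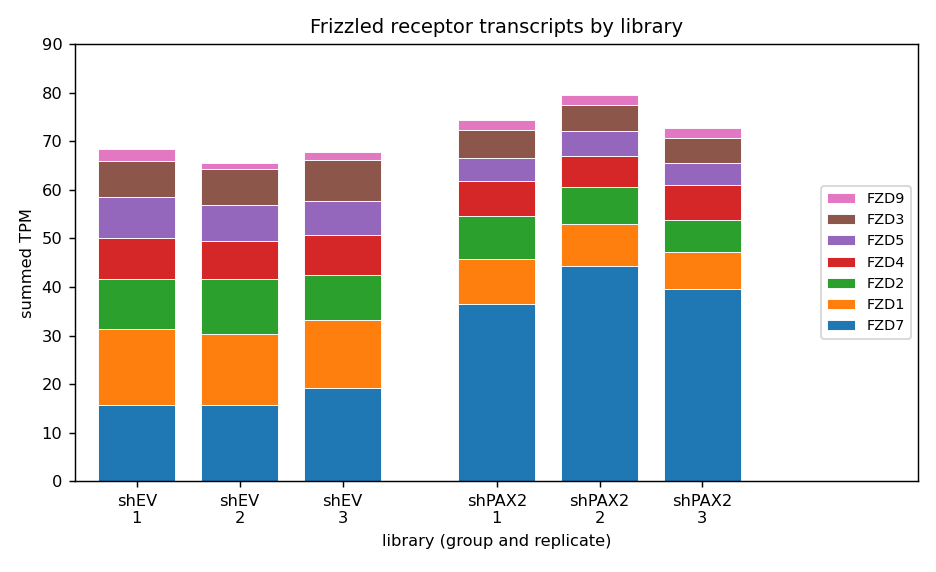
Summed TPM of the 7 tested Frizzled receptors in each library, stacked by receptor, with bars starting at 0. *FZD7*, at the bottom of each bar, makes up 22.9% to 28.1% of all Frizzled TPM in shEV and 48.9% to 55.9% in shPAX2, while the bars differ less in height.

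All 4 tested genes of the co-receptor list fell on the TPM scale, where 30.5% of all tested genes were lower. Of these, 3 also fell under median-of-ratios scaling (19.6% of all tested genes lower). *PTK7*, a surface gene from the further lists below, went the other way (log2 fold change 0.70, limma adjusted p = 3.37e-05). It was at 52.8 to 55.7 TPM in shEV and 85.9 to 93.2 TPM in shPAX2. *ROR1*, a receptor tyrosine kinase-like protein that binds Wnt5a (GRCh37 chromosome 1, 64239688 to 64647181, plus strand), measured 3.63, 3.48 and 4.36 TPM in shEV, from 128, 202 and 259 reads. In shPAX2 it measured 1.01, 1.07 and 1.06 TPM, from 102, 95 and 68 reads, although those libraries were deeper. The shPAX2 mean was 27.4% of the shEV mean, and the shPAX2 libraries lay close together (SD 0.0308 TPM, n = 3). The log2 fold change was -1.48 (SE 0.13, limma adjusted p = 5.34e-05), from -1.85 to -1.23 over the alternatives. Its relative *ROR2* had at most 3 reads in a library.

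*LRP5* and *LRP6*, the co-receptors that recruit Axin when a Wnt is bound, fell together. *LRP5* measured 24, 23.3 and 21.7 TPM in shEV and 17.6, 16.4 and 15.0 TPM in shPAX2 (log2 fold change -0.48, SE 0.08, limma adjusted p = 0.00128). *LRP6* measured 22.8, 21.6 and 24.8 TPM in shEV and 17.8, 18.4 and 18.3 TPM in shPAX2 (-0.33, SE 0.07, limma adjusted p = 0.00465). Neither overlapped between the groups, and both passed in every alternative. *RYK*, a receptor-like pseudokinase and the most abundant gene of the co-receptor list, measured 84.6, 80.9 and 95 TPM in shEV and 67.3, 73.3 and 76.7 TPM in shPAX2, and fell by 0.26 (SE 0.08, limma adjusted p = 0.0250). The *RYK* call was lost under median-of-ratios scaling (-0.15) and without shEV replicate 3 (-0.19), shPAX2 replicate 1 (-0.21) or shPAX2 replicate 2 (-0.27), with limma adjusted p from 0.00629 to 0.133 over the alternatives.

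The R-spondin axis sets how many Frizzled receptors stay at the surface, since R-spondins bound to LGR receptors inactivate the ubiquitin ligases ZNRF3 and RNF43. *LGR4* measured 12.3, 12.3 and 13.5 TPM in shEV and 10.1, 8.67 and 9.30 TPM in shPAX2. The groups did not overlap, and *LGR4* fell by 0.42 on the log2 scale (SE 0.08, limma adjusted p = 0.00367), a call made in every alternative. *ZNRF3* measured 4.92, 5.11 and 4.79 TPM in shEV and 4.77, 4.87 and 4.89 TPM in shPAX2. These overlapped, with a log2 fold change of -0.03 (95% CI -0.23 to 0.18, limma adjusted p = 0.830). *RNF43* never exceeded 1 read, and *RSPO1* had no read in shEV and at most 2 in shPAX2.

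None of the 3 Dishevelled genes, which carry the signal from Frizzled to the destruction complex, passed. *DVL1* was at 39.5 to 43.9 TPM in shEV and 41.0 to 50.8 TPM in shPAX2 (log2 fold change 0.15, limma adjusted p = 0.173). *DVL2* was at 56.2 to 59.0 and 58.9 to 68.1 TPM (0.13, limma adjusted p = 0.141), and *DVL3* at 28.7 to 32.2 and 27.5 to 29.9 TPM (-0.05, limma adjusted p = 0.553). Under median-of-ratios scaling *DVL1* (0.26) and *DVL2* (0.24) became the additional higher calls, with limma adjusted p from 0.0400 to 0.437 and from 0.0171 to 0.325 over the alternatives. *DVL3* changed sign under that scaling, to 0.06.

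*CTNNB1*, which encodes β-catenin, was the most abundant gene of the group at 346 to 380 TPM in shEV and 318 to 348 TPM in shPAX2. The groups overlapped, and the log2 fold change was -0.11 (95% CI -0.25 to 0.03, limma adjusted p = 0.189). The result depended on the scaling, with 0.0034 under median-of-ratios scaling and -0.16 under quantile normalization, where *CTNNB1* passed as lower (limma adjusted p = 0.0476, and from there to 0.968 in the other alternatives). *ULK4* overlaps *CTNNB1* on the opposite strand, and the strand setting of the counting is not given in the sources used here. The same holds for *FZD4*, which *PRSS23* overlaps, and *DVL1*, which *TAS1R3* overlaps. RNA levels say nothing of the stability of the protein, where the pathway acts.

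Of the destruction complex, *APC*, the scaffold that holds β-catenin, measured 28.3, 26.3 and 28.1 TPM in shEV and 22.2, 22.5 and 23.4 TPM in shPAX2. It fell by 0.28 on the log2 scale (SE 0.06, limma adjusted p = 0.00659), in every alternative and without overlap. *GSK3B*, the kinase that marks β-catenin, measured 25.8, 26.3 and 28.6 TPM in shEV and 22.6, 22.5 and 24 TPM in shPAX2, and fell by 0.22 (SE 0.07, limma adjusted p = 0.0240). The *GSK3B* call was lost under median-of-ratios (-0.11) and quantile (-0.13) scaling and without shEV replicate 3 (-0.18) or shPAX2 replicate 2 (-0.20), with limma adjusted p from 0.00901 to 0.191 over the alternatives. *AXIN1*, the limiting scaffold, was at 32.0 to 35.8 TPM in shEV and 33.2 to 38.4 TPM in shPAX2, and did not pass (0.07, limma adjusted p = 0.445).

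*AXIN2*, the Axin that β-catenin itself induces and a widely used readout of the pathway (GRCh37 chromosome 17, 63524681 to 63557766, minus strand), measured 0.704, 0.856 and 1.07 TPM in shEV. In shPAX2 it measured 0.293, 0.316 and 0.363 TPM. The reads behind these values numbered 16, 32 and 41 for shEV and 19, 18 and 15 for shPAX2. All shPAX2 libraries lay below all shEV libraries. It fell by 0.73 on the log2 scale (SE 0.18), and the shPAX2 mean was 36.9% of the shEV mean. As *AXIN2* reached the filter only through shEV, its test is given from the limma fit with no filter (adjusted p = 0.0053). The estimate moved with the pseudocount and method, from -1.44 (voom on the recovered reads) to -0.50 (pseudocount of 1 TPM). Without any 1 of the shEV libraries, or with the filter at 1 TPM, *AXIN2* and *WNT9A* were no longer tested.

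Of the other tested feedback genes, *TCF7* fell, and *NKD1*, *NKD2* and *ZNRF3* (given above with the R-spondin axis) did not pass. *TCF7*, a TCF factor that is also a target of the pathway, measured 12.8, 15.7 and 12.9 TPM in shEV and 10.7, 10.3 and 11.1 TPM in shPAX2, and fell by 0.35 on the log2 scale (SE 0.09, limma adjusted p = 0.0147). The *TCF7* call was lost under median-of-ratios (-0.24) and quantile (-0.17) scaling and without shPAX2 replicate 2 (-0.32), with limma adjusted p from 0.00762 to 0.225 over the alternatives. *SKP1* overlaps it on the opposite strand. *NKD1*, an inhibitor of Dishevelled, measured 1.2, 1.61 and 1.56 TPM in shEV and 1.79, 1.62 and 1.46 TPM in shPAX2. Its groups overlapped (0.12, 95% CI -0.22 to 0.46, limma adjusted p = 0.548). *NKD2* measured 5.40, 3.06 and 3.64 TPM in shEV and 4.39, 3.69 and 4.36 TPM in shPAX2, and overlapped too (0.06, 95% CI -0.34 to 0.47, limma adjusted p = 0.796). *LEF1*, under the filter, gave 4, 6 and 6 reads across shEV against 0, 0 and 3 across shPAX2. On these few reads *LEF1* passed in the limma fit with no filter (log2 fold change -0.35, adjusted p = 0.0135). In that fit 30.5% of all listed genes passed. Its shEV mean (0.169 TPM) was 2.88 times the floor of 3 reads averaged over shPAX2 (0.0586 TPM). Counting error in shEV is not in that ratio, and shPAX2 replicate 3 (0.0745 TPM) lay above the averaged floor.

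*TCF7L1*, mostly a repressor, was at 4.09 to 4.34 TPM in shEV and 3.20 to 3.61 TPM in shPAX2, without overlap (log2 fold change -0.27, limma adjusted p = 0.0582). *TCF7L2* was at 8.70 to 11.1 TPM in shEV and 8.19 to 9.05 TPM in shPAX2, and overlapped (-0.25, limma adjusted p = 0.0829). Neither passed. The order within the family was *TCF7*, *TCF7L2*, *TCF7L1* and *LEF1* in both groups, and *TCF7* supplied 48.4% ± 2.57 of the family's TPM in shEV and 47.3% ± 0.470 in shPAX2 (SD, n = 3 each). This share of *TCF7* overlapped between the groups. The summed TCF/LEF level averaged 28.5 ± 2.75 TPM for shEV and 22.7 ± 0.716 TPM for shPAX2 (SD, n = 3 per group), without overlap. The sum was not taken under other scalings. None of the 3 tested TCF/LEF genes passed under median-of-ratios scaling or quantile normalization, where their median log2 fold changes were -0.17 and -0.05.

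Among the planar cell polarity genes, *VANGL2* measured 11, 11.3 and 12.6 TPM in shEV and 10.5, 8.94 and 8.21 TPM in shPAX2, and fell by 0.32 on the log2 scale (SE 0.10, limma adjusted p = 0.0321). This call was the least stable, since it was lost in 8 of 14 alternatives, among them both scalings, the fit with no filter, and the fits without shEV replicate 2 or 3 or without shPAX2 replicate 2 or 3 (limma adjusted p from 0.00835 to 0.348 and estimates from -0.42 to -0.12 over the alternatives). *VANGL1* was at 12.3 to 13.3 TPM in shEV and 11.6 to 12.6 TPM in shPAX2 (-0.09, limma adjusted p = 0.329). *CELSR2*, a large cadherin of the same system, was at 4.56 to 4.74 and 3.52 to 4.23 TPM, without overlap (-0.27, limma adjusted p = 0.0655). Neither passed.

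**Figure D3:**
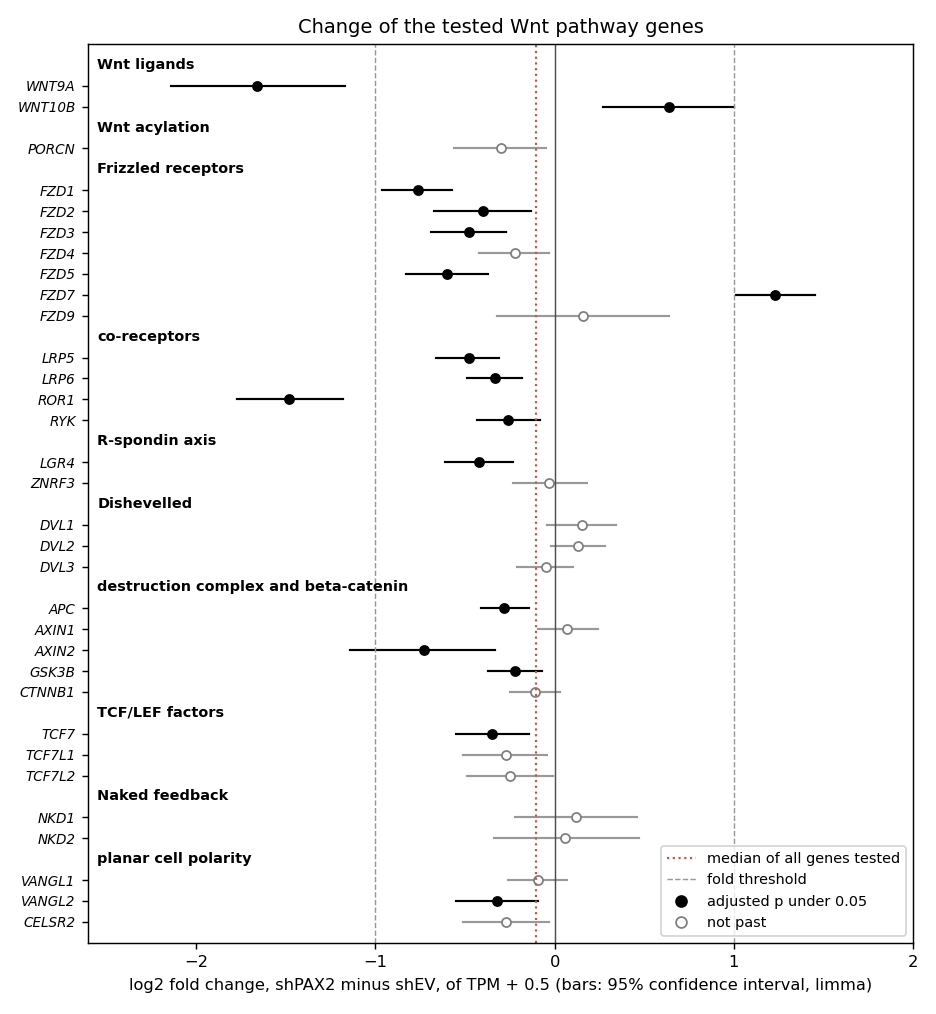
Log2 fold change of the 32 tested Wnt pathway genes, shPAX2 minus shEV, on the log2(TPM + 0.5) scale, with bars for the 95% confidence interval of the limma fit. Filled points passed an adjusted p of 0.05 (17 genes), dashed lines mark the fold threshold of 1 in each direction, and the dotted line is the median of all tested genes (-0.10). *FZD7* lies beyond the threshold on the right, and *ROR1* and *WNT9A* beyond it on the left.

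The other genes of the pathway were read from lists of 109 genes, of which 94 were listed and 73 tested. Of the 73, 42 (57.5%) passed the adjusted p in limma, against 42.8% of all tested genes, with a median log2 fold change of -0.27. Higher were 6 (8.22%, against 12.2% of all tested genes) and lower 36 (49.3%, against 30.5%), and the same shares of all genes stand behind the counts of each list. Cytoplasmic regulators had 11 of 20 lower and nuclear partners of β-catenin 10 of 19 lower, with none higher in either list on the TPM scale. Described β-catenin target genes went both ways, with 3 higher and 5 lower of 15. The list of secretion, surface and extracellular handling had 1 higher (*PTK7*) and 4 lower of 7, and the further planar cell polarity genes 2 higher and 6 lower of 11. In the list of further ligands and R-spondins, only *WNT10A* was tested, and it did not pass (-0.24, limma adjusted p = 0.353). Under median-of-ratios scaling 34 of the 73 passed, 10 higher and 24 lower, with a median of -0.17, where 21.8% of all tested genes were higher and 19.6% lower. Under quantile normalization 31 passed, 10 higher and 21 lower, where the shares of all tested genes were 18.0% and 18.9%.

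Both thresholds were passed by 6 of these 73 genes (8.22%, against 4.54% of all tested genes), 1 higher and 5 lower (backgrounds 1.43% and 3.11%). *CELSR3*, a planar polarity cadherin, was the higher one, at 1.42 to 1.78 TPM in shEV and 5.11 to 5.97 TPM in shPAX2 (log2 fold change 1.55, limma adjusted p = 2.77e-05), while *CELSR2* did not pass. *TLE1*, a co-repressor that binds TCF factors, was at 1.18 to 1.80 TPM in shEV and 0.0940 to 0.260 TPM in shPAX2, a log2 fold change of -1.59. It reached the filter only through shEV, and its limma adjusted p in the fit with no filter was 0.000891. Without it, 5 of 72 passed both thresholds (6.94%, against 3.32% of all genes so counted). *CXXC5*, an inhibitor of Dishevelled, fell by 1.26 (limma adjusted p = 1.9e-05), and *KREMEN2*, a receptor of the DKK antagonists, also fell by 1.26 (limma adjusted p = 0.000163). *FAT4*, an atypical cadherin, fell by 1.18 (limma adjusted p = 0.000154) and *PRICKLE3*, a partner of the Vangl proteins, by 1.07 (limma adjusted p = 0.000424). Under median-of-ratios scaling 5 of the 73 passed both thresholds, against 4.32% of all tested genes. Under quantile normalization 4 of the 73 did, against 4.05%. The genes of these lists that fell include inhibitors as well as components of the pathway.

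**Figure D4:**
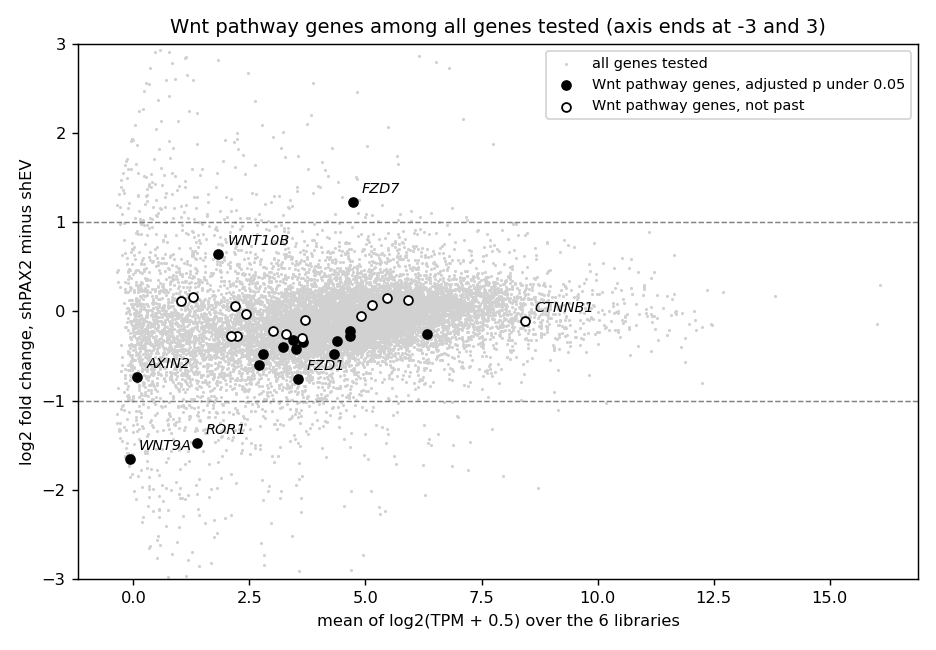
Log2 fold change, shPAX2 minus shEV, against the mean of log2(TPM + 0.5) over the 6 libraries for the 13163 tested genes (grey) and the 32 tested Wnt pathway genes (circles, filled where the adjusted p was under 0.05). The vertical axis ends at -3 and 3, which leaves out 41 genes, and *FZD7*, *ROR1* and *WNT9A* are the pathway genes outside the dashed fold lines.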

How the data were processed

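RNA-Seq was analyzed from 6 AN3CA libraries, 3 shEV and 3 shPAX2, made with a stranded total RNA kit. The authors deposited TPM values for 17471 genes. The submitters' processing notes name bcl2fastq, STAR, Subread, featureCounts, edgeR and hg19. Their versions and the strand setting are not given in the sources used here.

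Within a gene, TPM ratios between libraries were whole-number ratios in 100.0% of genes (tolerance 1e-11), and 1 whole-base length per gene held, so whole reads were recovered. Reads carry no molecular identifiers, so the floor of 3 reads covers counting error only. Genes with at least 0.5 TPM in at least 3 libraries were tested on log2(TPM + 0.5) by limma 3.58.1 (R 4.3.3, lmFit followed by a robust eBayes fit with a mean-variance trend), two-sided, with Benjamini-Hochberg adjustment over all 13163 genes. This scale understates changes of low genes, and TPM is a share of a total. The fit and the read recovery were checked on simulated data. Genes that reached the filter through 1 group only are tested in the text from the fit with no filter. Alternatives were other pseudocounts, filters and scalings, voom on the recovered reads, a replicate block, and leaving out each library.

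The members and lists were chosen with earlier results of these data known. Values in every library are given for genes past both thresholds, for genes past the adjusted p with a mean of at least 5 TPM and no overlap, and for tested β-catenin feedback genes. Other members are given by range, and other pathway genes are named where past both thresholds. *PTK7* is named besides these, after its values were seen, and *WNT10A* as the only tested gene of its list. *WNT10B*, *CTNNB1* and the remaining genes given by range were described after their values were seen. Coordinates are from GENCODE on GRCh37. Chi-square per degree of freedom between libraries of a group ran from 3.13 to 14.9, above sampling noise. The highest values, 12.1 and 14.9, were those of shPAX2 replicate 1 against shPAX2 replicates 2 and 3.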

Additional observations from a re-analysis of the deposited data

How the results depend on the processing

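The counts of pathway genes past the adjusted p (17), lower (15) and past both thresholds (3) kept within 1.5 times under the other pseudocounts, filters and scalings and voom. They ran from 14 to 20, from 10 to 18 and from 2 to 4. Of all tested genes, 30.5% to 45.3% passed under these settings, 18.9% to 31% were lower and 3.34% to 6.02% passed both. With no filter the 17 genes included *LEF1* and not *VANGL2*. The count of higher genes (2) was 4 under median-of-ratios scaling. Across the fits that each left out 1 library, 11 to 18 genes passed, 1 to 2 of them higher, 10 to 16 lower and 2 to 3 past both thresholds, with 11 and 1 higher without shPAX2 replicate 2 as the lowest. In the same fits 29.5% to 43.5% of all tested genes passed, 7.49% to 13.9% higher, 22% to 29.6% lower and 3.75% to 4.69% past both. Past both were 2 genes without each shEV library and with the filter at 1 TPM, because *WNT9A* was then not tested. Leaving out the genes that reached the filter through 1 group only, a choice made after seeing the data, gave 15 genes, 2 higher and 13 lower, 2 past both. *PAX2* stayed past the threshold throughout, from -1.87 to -1.20, and from -1.61 to -1.36 without 1 library. *CTNNB1* passed as lower only under quantile normalization (-0.16). Signs reversed only for genes that did not pass in the test as reported: under median-of-ratios scaling *ZNRF3* (0.08), *DVL3* (0.06), *CTNNB1* (0.0034) and *VANGL1* (0.02), under quantile normalization *ZNRF3* (0.21), *DVL3* (0.04) and *VANGL1* (0.09), and without shEV replicate 2 *FZD9* (-0.07, and up to 0.38 without another library) and *NKD2* (-0.09, up to 0.27). The cause was not tested.

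Pairing by replicate number was not borne out, since deviations of same-numbered libraries correlated at -0.0523, 0.0815 and 0.0014. With the replicate block, 17 genes passed, 2 higher and 15 lower, 3 past both, and *PAX2* was -1.47. Of all tested genes, 38.8% passed with the block, 11.3% higher, 27.5% lower and 4.47% past both. *VANGL2* lost its call there and *PORCN* gained one. The 13 genes under the filter reached at most 0.466 TPM and 10 reads in any library, and 6 of them had 3 or fewer reads in all 6 libraries.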
